A study of Mus musculus with 4 samples.

Results

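The genes described here are the subunits of heterotrimeric G proteins (Gα, Gβ and Gγ), the regulators of G protein signalling (Rgs), the adenylyl cyclases (Adcy) and the phosphodiesterases (Pde). They were chosen by platform gene symbol: Gna, Gnb, Gng, Rgs, Adcy or Pde followed by a digit, or Gnai1, Gnai2, Gnai3, Gnao1, Gnaq, Gnal or Gnaz. The choice gave 53 of the 8251 genes with a single symbol, measured by 78 probe sets, and each gene was taken at its probe set with the highest mean. Adcy8 was left out by name, although its symbol fits this rule. Gnas and the cyclase and phosphodiesterase genes that the symbols did not reach are not among the 53 either. Gng5 and Gnal fit the rule, but no probe set carried either as its single symbol. A few names cover proteins of another kind: Pde4dip is an anchoring protein that binds a phosphodiesterase, and Pde6d is a carrier of lipid-modified proteins.

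The RNA came from the hippocampal area CA1 and was hybridised to 4 Affymetrix mouse arrays. All 4 samples were untreated controls from young male C57BL/6J mice that had been handled by an experimenter and had received no other treatment. RNA was taken at 1, 2, 4 and 6 h after the last shock of treated mice, which are not analysed here, with 1 array per hour. A difference between hours therefore has no replicate check, the 4 arrays limit the precision of every value, and the number of mice behind each sample is not stated in the labels.

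G proteins relay the signal of receptors on the cell surface. An activated receptor loads the α subunit with GTP, α and βγ separate, and each acts on its own targets until the α subunit hydrolyses its GTP, a step that Rgs proteins speed up. Stimulatory α subunits switch adenylyl cyclases on and inhibitory ones switch them off, so the cyclases set how fast cyclic AMP is made, and phosphodiesterases set how fast cyclic AMP and cyclic GMP are broken down. In hippocampal pyramidal neurons this pathway is known for its part in lasting synaptic plasticity and memory.

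Values are the authors' scaled probe set signals on a linear scale. A signal can be compared between arrays for the same probe set, not between genes, because each probe set binds its transcript with its own strength. Signals under a floor of 36.8 were set to it before log2 was taken. Of the 53 genes, 40 had a mean log2 signal at or above that of a signal of 116.4, the level needed for testing, and 13 did not, and these 40 were 9 Gα, 4 Gβ, 5 Gγ, 10 Rgs, 5 Adcy and 7 Pde genes.

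The 4 CA1 markers measured summed to 4014, 3864, 4671 and 4279 at 1, 2, 4 and 6 h, although 1 of them, Camk2a, was close to the floor at 1 and 6 h, with 41.0, 351, 195 and 43.3. The 5 dentate gyrus markers summed to 794, 415, 711 and 596. The 2 h array stood apart from the rest in several measures. Gapdh, whose 3' and 5' ends are measured separately, had a 3' to 5' ratio of 1.08 on this array and of 3.62 to 4.10 on the others, and the same ratio of beta-actin was 1.72, against 2.27 to 2.93. The summed choroid plexus markers were 1895 at 2 h, against 729 to 1198 on the others. Of these, Ttr and Igfbp2 were highest at 2 h and Kl was lowest there, while Folr1 was highest at 6 h and Aqp1 at 4 h. The CA2 and CA3 markers, mostly Ncdn, summed to 20312 at 2 h, against 28911 to 31533. Ncdn was lowest at 2 h, with 18579.5, whereas Bok, Prkcd and Pcp4 were highest there, with 1019.6, 625.1 and 87.7. The part of what set the 2 h array apart in the 2 h values below was not tested.

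Most members varied by less than 2-fold between arrays, as did most genes. Of the 40, 34 did (85%, against 77.4% of all 7237 probe sets tested and 79.6% of 5546 genes at their brightest probe set). The median range was 1.55-fold, against 1.54-fold for all probe sets and 1.51-fold for the genes. Without the 2 h array the median range of the members was 1.28-fold, against 1.34-fold for all probe sets and 1.33-fold for the genes. Then 36 of 40 stayed within 2-fold (90%, against 87.3% and 88.4%). At the probe sets used, the wide ranges belonged to 6 genes: Gnaz, Gnb3, Rgs11, Pde9a, Gng11 and Pde1a.

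**Figure D1:**
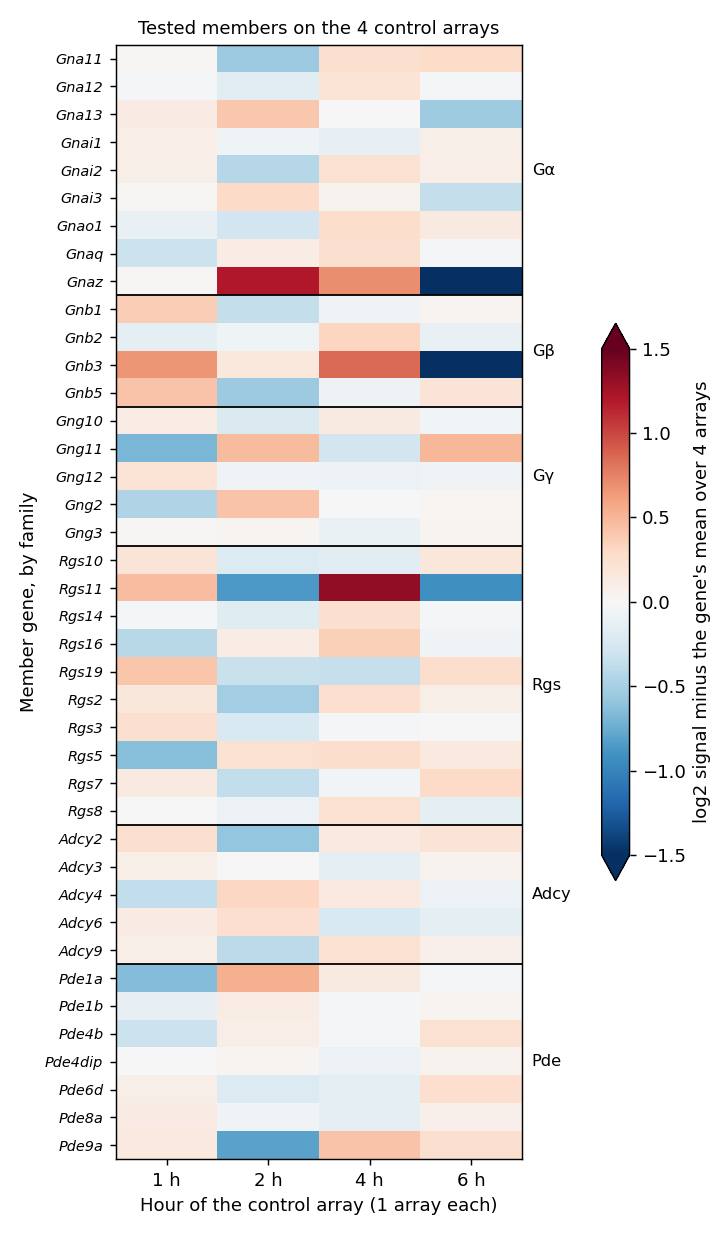
Heat map of the 40 tested members (rows, by family) on the 4 control arrays (columns). Colour is the log2 signal minus the gene's own mean over the 4 arrays, after the floor of 36.8. Most rows are pale, and the deep colours belong to Gnaz and Gnb3, both lowest at 6 h, and to Rgs11, highest at 4 h.

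No member had a trend over the hours that passed the test. A straight line through log2 signal against hour, fitted with limma over all 7237 probe sets, called 0 of the 40 members and 0 of all probe sets (0%), with 0.9996 as the smallest adjusted p. Without the 2 h array it still called 0 members, but 32 of all probe sets (0.442%). That fit left 1 residual degree of freedom, and its variance prior outweighed each probe set's own spread entirely. The 32 are therefore not read as trends hidden by the 2 h array. Taken unadjusted, 0 members had a p under 0.05, against 2.71% of all probe sets. Slopes were above 0 for 25 members and below 0 for 15. The split over all probe sets is not given, so this is not read as a lean of the members. The lowest slope was that of Gnaz and the highest that of Gng11, both described with their families.

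Against the 1 h array, 4 members differed by at least 2-fold at 2 h, 3 higher and 1 lower, where 10.2% of all probe sets did (6.92% higher and 3.29% lower) and 8.67% of the 5546 genes at their brightest probe set. The 3 higher were Gnaz, Pde1a and Gng11, and the lower one was Rgs11. The split depended on the scaling. After quantile normalization 2 were higher and 3 lower (5.96% and 3.98% of all probe sets), and after centring each array on its median 3 were higher and 3 lower (5.64% and 4.71%). Gng11 fell short of 2-fold after quantile normalization, and Gnb5 and Pde9a passed it downward under both. At 4 h 0 members differed by at least 2-fold (6.2% of all probe sets, with 3.69% higher and 2.51% lower, and 5.46% of genes), with Rgs5 farthest above and Rgs19 farthest below the 1 h array. At 6 h 4 did (6.54% of all probe sets, with 3.74% higher and 2.79% lower, and 5.95% of genes): Gng11 was higher, though not after quantile normalization, and Gnaz, Gnb3 and Rgs11 were lower. The members' median log2 difference against 1 h was -0.16 at 2 h, 0.11 at 4 h and -0.01 at 6 h, beside -0.0032, 0.02 and 0.02 for all probe sets tested. The 6 h median turned to 0.01 after quantile normalization. All 3 comparisons share the 1 h array.

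**Figure D2:**
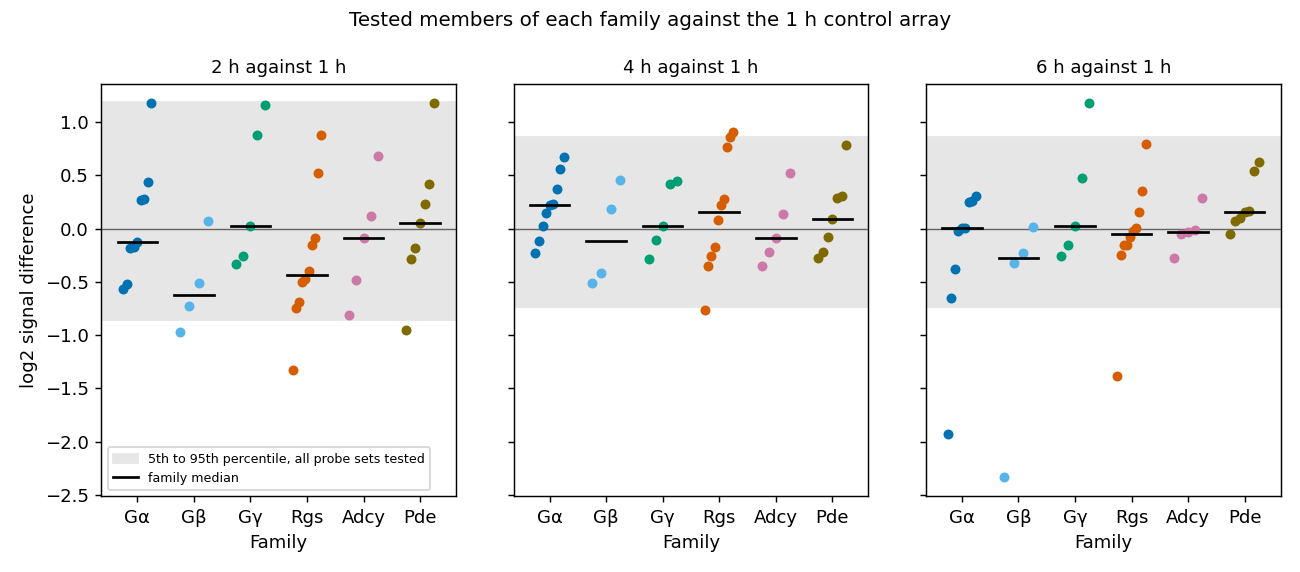
Log2 signal difference of each tested member (points) against the 1 h control array at 2, 4 and 6 h, by family, with the family median (black bar) and the 5th to 95th percentile of all 7237 probe sets tested (grey band). At 2 h the Rgs points lie mostly below 0, with a median of -0.44. At 6 h Gnaz, Gnb3 and Rgs11 lie below the grey band.

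Among the α subunits of the inhibitory and Go type, Gnai1 kept a narrow range on its brightest probe set, and Gnao1, Gnai2 and Gnai3 had ranges of 1.46-fold, 1.58-fold and 1.57-fold, near the median of all probe sets. Gnao1, the Go subunit and one of the abundant proteins of neuronal membranes, had signals of 13284, 11748, 17152 and 15786 at 1, 2, 4 and 6 h, lowest at 2 h and highest at 4 h. Gnai2, an inhibitory subunit found in most cell types, had 14229, 9941, 15703 and 14313, with the 2 h array alone apart. Gnai1, the inhibitory subunit that is prominent in neurons, had 3501, 3111, 2996 and 3457 and was among the members with the narrowest range, 1.17-fold. Gnai3, the third inhibitory subunit, had 1251, 1508, 1274 and 959, highest at 2 h and lowest at 6 h. On these probe sets Gnao1 and Gnai2 shared their order of the arrays, and Gnai1 and Gnai3 each had another. The dimmer tested probe sets of Gnao1 and Gnai2 did not all keep that order.

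Gnaz, an inhibitory-type subunit of neurons and platelets that pertussis toxin does not modify, had the widest range of all members. Its signals were 215, 487, 343 and 56.6 at 1, 2, 4 and 6 h, so the 6 h array alone was low and lay within 2-fold of the floor. Its slope was -0.42 ± 0.19 log2 per hour (SE, 4 arrays), with an unadjusted p of 0.0569 and an adjusted p of 0.9996 from limma. Without the 6 h array the slope was 0.16, so its direction rested on that array.

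Among the remaining α subunits, Gna11 and Gna13 had slopes of opposite sign, and neither passed the trend test. Gna11, a Gq-type subunit that activates phospholipase C, had 1396, 943, 1627 and 1667 at 1, 2, 4 and 6 h, lowest at 2 h, with a slope of 0.11 ± 0.07 log2 per hour (SE). Gna13, a subunit of the G12 type, had 528, 642, 488 and 336, lowest at 6 h, with a slope of -0.15 ± 0.07 (SE). Its relative Gna12 had 952, 870.0, 1119 and 958, within 1.29-fold. Gnaq, the other Gq-type subunit of neurons, had 155, 209.9, 229 and 192, lowest at 1 h. The slope of Gnao1 was 0.08 ± 0.06 log2 per hour (SE), and it turned to -0.02 when its 4 tested probe sets were averaged.

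The Gβ genes had the lowest family median at 2 h, -0.62 log2 against 1 h over 4 genes, with 3 of 4 lower, while 50.3% of all probe sets were lower. Gnb1, the common neuronal β subunit, had 5962, 3608, 4456 and 4761 at 1, 2, 4 and 6 h. Gnb5, the unusual β subunit that pairs with Rgs proteins in place of a γ subunit, had 833, 426, 586 and 710.4, so its 2 h signal was 0.512 times that of 1 h. Both genes were highest at 1 h and lowest at 2 h. Gnb2, a widespread β subunit, had 3989, 4180.4, 5457.5 and 4037.5, with only the 4 h array apart from the rest. Gnb3, known from cone photoreceptors and retinal bipolar cells, had 186, 130.2, 211 and 23.8, and the 6 h value lay under the floor. Its slope was -0.38 ± 0.19 log2 per hour (SE) and turned to 0.10 without the 6 h array.

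The Gγ genes included the steadiest member. Gng3, a γ subunit of neurons, had 7726, 7844, 7155 and 7861 at 1, 2, 4 and 6 h, a mean of 7646 ± 333 (SD, n = 4) and a range of 1.10-fold. Gng10, a γ subunit with a broad distribution, had 1576, 1255, 1605.5 and 1419.9, within 1.28-fold. Gng12, likewise broadly expressed, had 1673, 1403, 1371 and 1401, with 1 h alone above the rest. Gng2, another γ subunit of brain, had 265, 486, 359.6 and 368, lowest at 1 h and highest at 2 h. Gng11, a farnesylated γ subunit found mainly outside neurons, had 93.4, 208.5, 125 and 212. Its 2 and 6 h signals lay at least 2-fold above 1 h, with log2 differences of 1.16 and 1.18 that became 0.96 and 0.99 after quantile normalization. The 4 h signal lay below both and above 1 h. Its second probe set, too dim to test, ran the other way, with 54.5, 3.5, 111.9 and 4.7, under the floor at 2 and 6 h. On the brighter probe set the slope of 0.14 ± 0.14 log2 per hour (SE) was the highest of the 40. The summed signal of 7 endothelial markers, cells in which Gng11 is known to be expressed, was 1304, 988, 1526 and 1281 at 1, 2, 4 and 6 h. Only 3 of the 7 were bright enough to test, and they did not move together. Cdh5 and Kdr were highest at 6 h, Flt1, Pecam1 and Vwf at 1 h, and Tek and Cldn5 at 4 h. The part of endothelial cells in the Gng11 values was not tested.

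Of the 10 Rgs genes, 8 were lower and 2 higher at 2 h than at 1 h, with a median log2 difference of -0.44, where 50.3% of all probe sets were lower. The 8 stayed lower after quantile normalization and after centring each array on its median, where the medians were -0.47 and -0.56. In 5 of the 10 the lowest signal was that of 2 h, and in 6 the highest was that of 4 h, against 32% and 23.2% of all probe sets. At 4 h the median was 0.15 with 4 genes lower (48.7% of all probe sets), and at 6 h it was -0.05 with 6 lower (47.5%). Of these Rgs genes, only Rgs11 reached 2-fold at any hour against 1 h.

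Rgs2, which acts on Gq and is induced by neuronal activity, had 467, 289.6, 495 and 442 at 1, 2, 4 and 6 h. Rgs7, a brain member of the subfamily that binds Gnb5, had 821, 579, 726 and 913. Both were lowest at 2 h, as was Gnb5 itself. So were 16 of the 40 tested members (40%) and 32% of all probe sets. Rgs11, a further partner of Gnb5, known from retinal bipolar cells, had 164, 65.2, 298 and 62.7, low on the 2 and 6 h arrays within 2-fold of the floor, and high at 4 h. The remaining subfamily members Rgs6 and Rgs9 were too dim to test, with 29.3 to 36.3 for Rgs6 and 61.3 to 106 for Rgs9, a gene typical of the striatum. The 4 striatal markers measured, mostly Penk, summed to 2339, 1852, 2495 and 2606, and 1 of them, Six3, was under the floor on every array. Penk was highest at 6 h, Drd2 at 1 h and Tac1 at 4 h.

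Rgs14, a scaffold known for its place in CA2 neurons, had 5284, 4756, 6398 and 5296 at 1, 2, 4 and 6 h, within 1.35-fold. Rgs8, studied mostly in cerebellar Purkinje cells, had 827, 776.5, 965 and 743, and Rgs3, a broadly expressed regulator, had 763, 548, 637 and 644. Rgs10, an Rgs gene of microglia and neurons, had 673, 509.9, 529 and 665. The summed signal of 7 microglial markers was 7322, 7254, 6336 and 7262, with Csf1r and Ctss lowest and C1qa, C1qb and Cx3cr1 highest at 2 h, and their part in the Rgs10 values was not tested. Rgs19, which acts on inhibitory α subunits, had 780.0, 466, 459 and 703, low on the 2 and 4 h arrays together. The low 4 h signal was that of 1 probe set: its other tested one had 434, 314, 451 and 429.5, and the log2 difference at 4 h against 1 h was -0.76 on the brighter one and -0.35 when both were averaged.

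Rgs5 and Rgs16 were the 2 Rgs genes that were higher at 2 h, and both also lay above 1 h at 4 and 6 h on their brightest probe sets. Rgs5, a marker of pericytes, had 172, 316, 322 and 297 at 1, 2, 4 and 6 h, so the 1 h array alone was low. Its slope was 0.12 ± 0.10 log2 per hour (SE) and turned to -0.02 without the 1 h array. The 7 pericyte and smooth muscle markers summed to 861, 747, 729.8 and 909.8, with Pdgfrb and Acta2 lowest and Notch3 and Myh11 highest at 4 h, and their part in the Rgs5 values was not tested. Rgs16, an Rgs gene that follows the body clock in some tissues, had 338, 484.5, 576 and 431.5, lowest at 1 h and highest at 4 h. Its dimmer tested probe set ran the other way, with 215, 111, 88.3 and 95.8, highest at 1 h.

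Of the 5 adenylyl cyclases tested, Adcy2 and Adcy9 were low on the 2 h array. Adcy2, a brain cyclase that βγ subunits activate, had 2947, 1678, 2775 and 2848 at 1, 2, 4 and 6 h: the other 3 arrays lay within 1.06-fold of each other. Adcy9, a widespread cyclase, had 2085, 1489.8, 2288 and 2061. Adcy3, known from olfactory neurons and neuronal cilia, had 724, 680.1, 621 and 707, within 1.17-fold. Adcy6, which calcium inhibits, had 388, 421, 304 and 319.7, and Adcy4, known from endothelium, had 133, 214, 190.4 and 162. The family median against 1 h was -0.09 log2 at 2 h, -0.09 at 4 h and -0.03 at 6 h.

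Among the phosphodiesterases the widest ranges were those of Pde1a and Pde9a. Pde1a, which calcium and calmodulin activate and which breaks down both cyclic nucleotides, had 560.3, 1269, 964 and 866 at 1, 2, 4 and 6 h, so that 1 h was the lowest and 2 h the highest. It was 2.27-fold higher at 2 h than at 1 h, and its dimmer probe set, with 143, 208, 242 and 206, was likewise lowest at 1 h but highest at 4 h. Without probe sets of a shared or incomplete design the dimmer one stood for Pde1a, and the log2 difference at 2 h against 1 h was 0.54, beside 1.18. Pde1b, the related gene, had 695.5, 814, 741 and 777, within 1.17-fold. Pde9a, which is specific for cyclic GMP, had 188, 97.5, 229.5 and 201, with only the 2 h array apart, and without it the range was 1.22-fold.

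The cyclic AMP enzymes Pde4b, a regulator of synaptic cyclic AMP, and Pde8a were steadier. Pde4b had 256, 342.5, 315 and 373 at 1, 2, 4 and 6 h, lowest at 1 h, and Pde8a had 212, 187, 175 and 204. The anchoring protein gene Pde4dip had 1182, 1225.5, 1118 and 1239.5, a mean of 1191 ± 54.5 (SD, n = 4), and the carrier gene Pde6d had 980.0, 802.5, 841 and 1096, lowest at 2 h. At 6 h, 6 of the 7 Pde genes were above 1 h, with a median log2 difference of 0.16, and 1 was lower, while 47.5% of all probe sets were lower. That median was 0.02 after median centring, which by itself moved the median of all probe sets at 6 h against 1 h to -0.12.

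**Figure D3:**
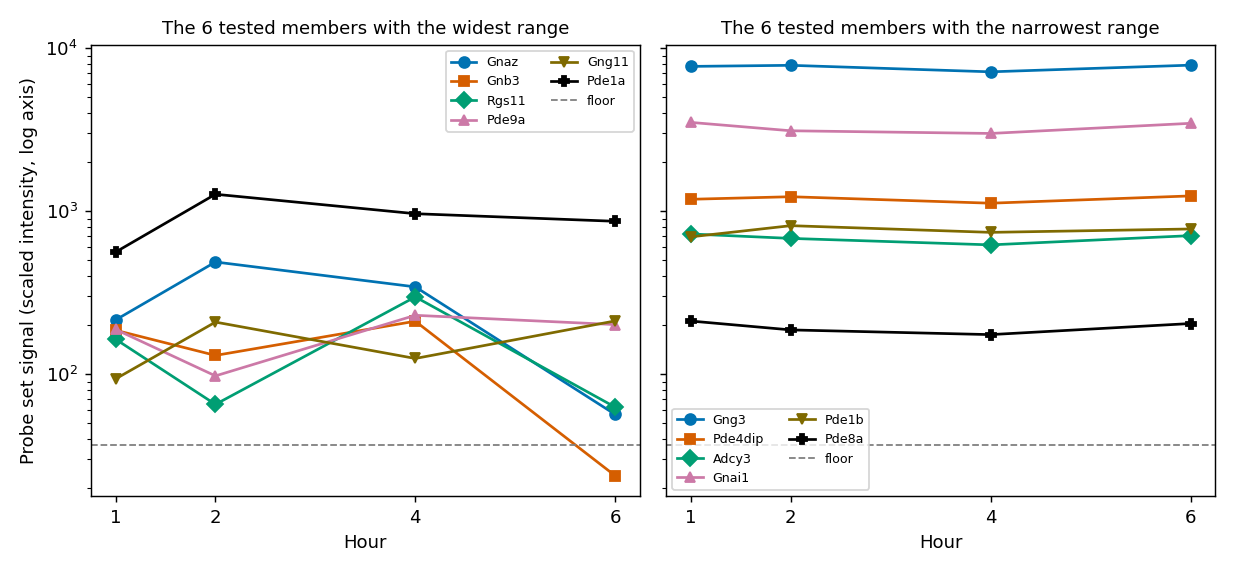
Signals of the 6 tested members with the widest range (left) and the 6 with the narrowest (right) on the 4 control arrays, by hour, on a log axis, with the floor of 36.8 dashed. Gnaz, Gnb3 and Rgs11 come within 2-fold of the floor, and Gng3 stays between 7155 and 7861.

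At the probe set used for each gene, the ranges of 4-fold or more belonged to genes whose lowest signal was near the floor. These were Gnaz, Gnb3 and Rgs11, the only tested members with a signal under 73.6, which is 2-fold above the floor, on any array at that probe set. Their ranges, after the floor, were 8.61-fold, 5.74-fold and 4.75-fold, and the low signal is itself an end of each range. The remaining 37 members had ranges between 1.10-fold and 2.35-fold at their brightest probe set, and 3 of them, Pde9a, Gng11 and Pde1a, reached 2-fold. Their dimmer tested probe sets had ranges of up to 5.15-fold, that of Gnai1, and the dimmest of Gnb1 had 71.6 at 6 h.

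Several genes had more than 1 probe set, and these did not always move together. Of the 11 members with at least 2 tested probe sets, all probe sets lay on the same side of 1 h in 7 genes at 2 h, in 5 at 4 h and in 7 at 6 h. Gnai1 differed most at 2 h: its dimmer probe set had 753 at 2 h against 146 at 1 h, and 196 and 212 at 4 and 6 h, while the brighter one had 3111 against 3501. Gnao1 had 4 tested probe sets, of which a dim one gave 364 at 2 h against 159 at 1 h and another gave 604 against 978. Rgs16 had 111 against 215 at 2 h on its dimmer probe set and 484.5 against 338 on the brighter one. The probe sets of Adcy9, Gna11, Gnai2, Gnb1, Pde1a, Rgs10 and Rgs19 stayed on one side at 2 h.

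**Figure D4:**
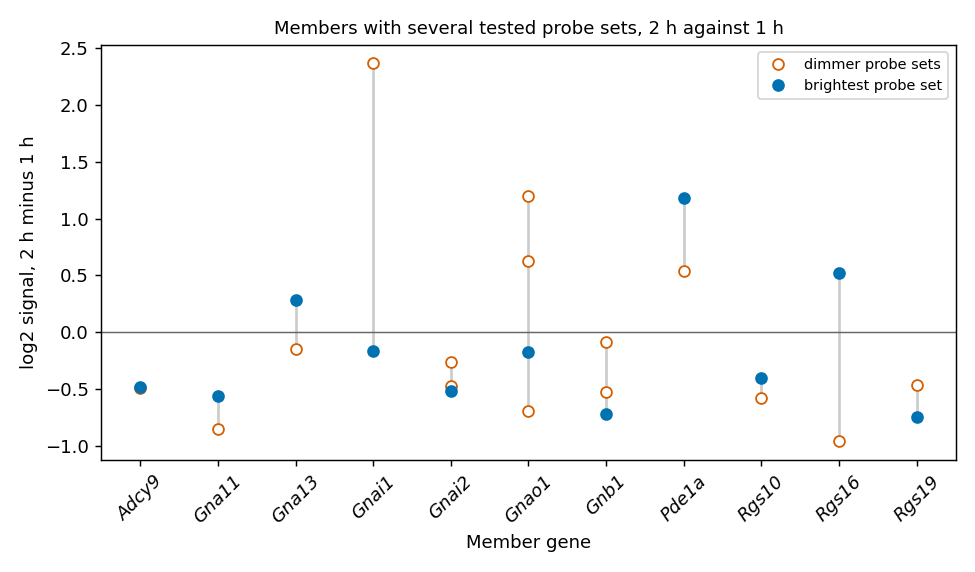
Log2 signal at 2 h minus 1 h for each tested probe set of the 11 members that have several, with the brightest probe set filled and the dimmer ones open. The probe sets of Gnai1, Gnao1, Rgs16 and Gna13 lie on both sides of 0.

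The trend also differed between probe sets in places. The dimmer probe set of Gna11 had 469, 260.4, 852 and 960.3 at 1, 2, 4 and 6 h, a slope of 0.31 ± 0.11 log2 per hour (SE). The dimmest of Gnb1 had 263, 183, 146 and 71.6, a slope of -0.35 ± 0.12 (SE), against -0.02 on the brightest. The unadjusted p was 0.024 for Gna11 and 0.02 for Gnb1, and the adjusted p from limma was 0.9996 for both.

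The 13 members too dim to test were Gna14, Gna15, Gnb4, Gng4, Rgs4, Rgs6, Rgs9, Adcy7, Pde1c, Pde6a, Pde6b, Pde6g and Pde7a, with signals from 3.3 to 228. Rgs4, a regulator abundant in cortex and hippocampus by other methods, had 28.1, 177, 40.5 and 52.0 at 1, 2, 4 and 6 h on its 1 probe set, high at 2 h alone. Adcy7, a cyclase that βγ subunits activate, had 77.7, 181, 51.8 and 41.0, again high at 2 h alone. The second probe sets of Gna12 and Rgs5, also too dim to test, did the same, with 222 against 63.6 to 76.9 for Gna12 and 142 against 16.5 to 18.9 for Rgs5. Pde7a, a cyclic AMP phosphodiesterase, had 120.4, 117, 12.1 and 70.3, and its 4 h signal lay under the floor. Pde1c, the third calmodulin-activated gene, was under the floor at 1 and 2 h and had 40.7 and 73.7 at 4 and 6 h. Gna15, a Gq-type subunit of blood cells, had 85.4, 59.9, 98.8 and 40.8, lowest at 6 h, whereas its relative Gna14 was under the floor on every array. Gng4 had 92.7, 130.4, 56.3 and 86.1 and Gnb4 had 26.9, 61.1, 12.5 and 35.6, both highest at 2 h. Among the 23 member probe sets too dim to test, the 2 h array was the highest in 12 (52.2%), against 24% of all 5185 such probe sets. Signals under the floor count in both shares. Gna14, Rgs6 and the second probe set of Rgs11, under the floor on every array, are among the 12. In 4 of the 23 (17.4%) the 2 h array lay at least 2-fold above each other array, against 4.19%. Among the 40 tested members at their brightest probe set, 0 lay at least 2-fold above or below each other array at 2 h. That was so for 3.12% of all probe sets tested and 2.33% of genes at their brightest probe set. Over all 55 tested member probe sets, 2 (3.64%) lay at least 2-fold above each other array, dimmer ones of Gnai1 and Gnao1, against 149 of all 7237.

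A list of other genes of G protein and cyclic nucleotide signalling held 41 measured genes, of which 24 were tested. The limma trend test called 0 of the 24 upward and 0 downward, and at an unadjusted p under 0.05 there were 0 as well. Against 1 h, 1 gene was at least 2-fold higher at 2 h and 0 lower, 0 were higher and 1 lower at 4 h, and 1 was higher and 1 lower at 6 h. Of all probe sets, 6.92% were higher and 3.29% lower at 2 h, 3.69% and 2.51% at 4 h, and 3.74% and 2.79% at 6 h. Kcnj9, a potassium channel subunit that βγ subunits open, had 158, 513, 279.8 and 236 at 1, 2, 4 and 6 h, and was highest at 2 h. Arrb1, a β-arrestin that ends receptor signalling, had 1004.5, 530.0, 460.1 and 615, with 1 h alone high. Pdc, phosducin, a βγ-binding protein of photoreceptors, had 186, 202, 189.8 and 53.7, and Pkib, an inhibitor of protein kinase A, had 109, 97.8, 98.4 and 219. Gnas, the stimulatory α subunit, had 37227, 32169.6, 47155 and 40825, lowest at 2 h and highest at 4 h, as was Gnao1.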

How the data were processed

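RNA of 4 control CA1 samples, grouped by the hour in their titles, was measured on 1 array each. The authors deposited a linear intensity for each probe set on each array, made by software that no label names. They appear to have scaled each array: means trimmed by 2% at both ends were 500.3 and differed by 0.00616% at most, so the intensity values were used as deposited. No detection calls and no counts were used, so depth does not apply.

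Values under the pooled 20th percentile (36.8) were set to it. Of 12488 probe sets, 66 were manufacturer controls, and the 7237 with a mean log2 at or above the pooled 40th percentile (116.4) were tested. Symbols came from the platform annotation (10833 probe sets with 1 symbol, 396 with several, 1193 with none), and 10817 were matched to current gene identifiers. Genome coordinates and sequences are not given.

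The trend was fitted with limma (version 3.58.1, R 4.3.3) as a slope in log2 per hour, with a mean-dependent variance prior and 2 residual degrees of freedom. Fits that left out an array had 1 residual degree of freedom. The p-values were two-sided and were adjusted by Benjamini-Hochberg over all probe sets tested, with a threshold of 0.05. The fit was also run on 1 simulated data set, where the share of false calls among its calls was above the threshold of 0.05. The simulated spread was drawn from the fit itself, so it cannot vouch for the test on these 4 arrays. Hours were set against 1 h with no test, by counting members at least 2-fold apart. The p-values measure only the spread between these 4 arrays. The members and lists were chosen with earlier results of these data known. Any tested member could be named, and those given in full were a fixed set, the extremes of range in each family, the extremes against 1 h, and the smallest slope p-values. The trend in probe sets not used for a gene and the second or dim probe sets named were chosen after their values were seen. Tables were made with Python 3.11.15 and pandas 2.3.3.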

Additional observations from a re-analysis of the deposited data

Results flagged for a closer look

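In 4 of the 40 tested members (10%), 1 array lay so far from the other 3 that the gap exceeded Dixon's 95% critical value for 4 samples, measured as a share of the range on the log2 scale. The same held for 466 of all 7237 probe sets tested (6.44%), and chance flags about 1 in 20. Adcy2 was low on the 2 h array, with 1678 against 2775 to 2947 on the other arrays, a gap of 0.893 of the range. Gng12 was high on the 1 h array, with 1673 against 1371 to 1403, a gap of 0.886. Rgs5 was low on the 1 h array, with 172 against 297 to 322, a gap of 0.872. Gnb2 was high on the 4 h array, with 5457.5 against 3989 to 4180.4, a gap of 0.85. The 2 h array was the one apart in 1 of the 4 members, and in 183 of the 466 probe sets.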

How the results depend on the processing

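The limma trend test called 0 members under every alternative run, and 0 of all probe sets except without the 2 h array, where it called 32 of 7237. Taken unadjusted, the limma p was under 0.05 for 0 members as reported, 3 with a gene's probe sets averaged (2.9% of all) and 2 after median centring (2.96%). It was so for 1 member each without the filter (4.07%), after quantile normalization (2.69%) and without shared or incomplete probe sets (2.91%). Leaving out 1 array at a time gave 5, 3, 2 and 0 members at that p without the 1, 2, 4 and 6 h arrays, beside 8.72%, 5.8%, 2.16% and 1.7% of all probe sets (2.71% as reported), and a median log2 range of 0.36 without the 2 h array to 0.52 without the 6 h array, against 0.64 as reported. The slope of Gnaz lay between -0.78 (without 1 h) and 0.16 (without 6 h), that of Gnb3 between -0.46 (without 4 h) and 0.10 (without 6 h), and that of Rgs5 between -0.0215 (without 1 h) and 0.26 (without 6 h). With its probe sets averaged Gnao1 had a slope of -0.0185. The median log2 difference of members was -0.29, 0.0036 and -0.15 at 2, 4 and 6 h after median centring, which moved the median of all probe sets to -0.13, -0.09 and -0.12. Without the filter it was -0.0364, 0.0266 and 0. At 4 h it was 0.0263 with the stricter filter. At 6 h it was 0.0558 against the mean of the other arrays, 0.0032 with the lower floor, 0.0127 after quantile normalization and 0.0061 without shared probe sets. Members 2-fold apart numbered 1 at 2 h and 0 at 6 h with the stricter filter, 1 at 4 h and 8 at 6 h without a filter, and 2 at 4 h against the mean of the other arrays. At 1.5-fold there were 13, 6 and 7. Of the 13 members too dim to test, which enter without a filter, 30.8% were 2-fold apart at 6 h, against 21.9% of all 5185 such probe sets. Members apart from each other array at 2 h numbered 3 at 1.5-fold, 2 without a filter, and 1 each after median centring and quantile normalization. For the other fold counts here no share over all probe sets is given, so they are not read as a result about the members. The causes of the changes between settings were not tested. Family medians, whose alternatives were chosen after seeing the data, kept their sign under quantile normalization except Gα at 2 h, which came to 0. After median centring Gγ at every hour, Gα at 6 h and Pde at 2 and 4 h turned below 0. No paired analysis was possible because each hour has 1 sample.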

Other observations

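The 3 rod phosphodiesterase genes were among the members too dim to test. Pde6a and Pde6b, the catalytic subunits of the rod phosphodiesterase, had 104, 88.7, 78.7 and 224 (Pde6a) and 30.7, 40.8, 35.7 and 83.3 (Pde6b) at 1, 2, 4 and 6 h, both highest at 6 h. A second Pde6b probe set gave 8.1, 14.3, 5.4 and 88.5, again highest at 6 h. Pde6g, the inhibitory subunit, had 116, 228, 66.9 and 83.7, highest at 2 h. Of the 5 retina markers measured, Rom1 had 6.3 to 38.3 and Prph2 22.8 to 46.5, Sag had 86.7, 51.4, 18.9 and 53.9, Nrl had 92.0, 7.2, 48.1 and 22.1, and Crx had 81.1, 274, 174.5 and 172. Sag and Nrl were highest at 1 h, where Crx was lowest. The 5 summed to 298, 372, 326 and 280.0, and 1 of them was bright enough to test. Their part in the values of the rod phosphodiesterase genes was not tested.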
